A study of Mus musculus with 6 samples.

Results

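The transcripts described here are those of the core splicing factors: the SR proteins, the heterogeneous nuclear ribonucleoproteins (hnRNPs), the Sm and other proteins of small nuclear ribonucleoproteins (snRNPs), and the SF3A and SF3B complexes. Members were chosen by gene symbol (Srsf followed by a number, Hnrnp, Snrp, Sf3a or Sf3b) among rows the deposited table classes as protein-coding. This gave 50 of its 57180 genes: 10 SR protein, 19 hnRNP, 12 Sm or snRNP and 9 SF3 genes. RNA was sequenced from lymphocytes isolated from Hepa1-6 tumors, which grow from a mouse hepatoma cell line. All mice carried such a tumor and were injected through the tail vein with the TREND delivery system and a plasmid for CasRx, a CRISPR nuclease that cuts RNA. In 3 libraries (Mock sgRNA) the plasmid carried a mock guide. In the other 3 (SLC43A2 sgRNA) its guide was directed at SLC43A2, which carries methionine and other large neutral amino acids across the cell membrane. The sources used here do not state the strain, sex or age of the mice, the harvest time or whether animals were pooled. The comparison asks how these transcripts differed in tumor-infiltrating lymphocytes after the 2 guides.

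Splicing removes introns from nascent transcripts. The U1 snRNP marks the start of an intron, the U2 snRNP with its SF3 proteins holds the branch site near its end, and the Sm proteins form the ring at the heart of most snRNPs. SR proteins mostly promote the use of exons that they bind, hnRNPs often oppose it, and the balance of the families shapes alternative splicing, which changes widely when T cells are activated. The arginine residues of several Sm protein tails are methylated by PRMT5, with S-adenosylmethionine, made from methionine, as the methyl donor, before the SMN complex loads the ring onto its RNA. Gene-level values of this kind measure the amount of each transcript and not the splicing of any intron.

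The sequences of 2 Sm protein genes come first, because another row of the table carries nearly the same bases. Snrpg encodes SmG and Snrpf encodes SmF, both parts of the Sm ring. Each has a processed pseudogene, a copy of its mRNA pasted elsewhere in the genome, that the deposited table lists as a gene of its own. In GENCODE M21 (GRCm38), Gm8186 on chromosome 17 (26098991 to 26099221, minus strand) is 231 bases long and matches the 231 coding bases of Snrpg (chromosome 6, 86371304 to 86379328, plus strand) with 0 mismatches. A read from these bases cannot be assigned to either. The coding sequence of Snrpg, which is also the whole of Gm8186, reads:
Snrpg: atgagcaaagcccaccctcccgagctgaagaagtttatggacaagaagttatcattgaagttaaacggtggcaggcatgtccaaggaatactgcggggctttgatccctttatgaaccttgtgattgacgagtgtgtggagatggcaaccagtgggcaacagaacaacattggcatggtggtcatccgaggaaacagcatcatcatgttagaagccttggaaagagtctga
Gm13092 on chromosome 4 (150315177 to 150315436, minus strand) aligns over 258 of the 261 coding bases of Snrpf (chromosome 10, 93583029 to 93589706, minus strand) with 3 mismatches, an identity of 98.8%. Counted from the first base shown, the changes from Snrpf to Gm13092 are C24T, A32G and G36A, and capitals mark them in the pair:
Snrpf: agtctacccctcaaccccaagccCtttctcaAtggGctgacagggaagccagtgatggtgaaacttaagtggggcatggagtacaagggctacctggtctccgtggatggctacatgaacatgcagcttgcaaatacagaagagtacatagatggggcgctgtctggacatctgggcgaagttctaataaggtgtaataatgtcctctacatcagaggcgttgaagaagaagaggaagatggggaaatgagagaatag
Gm13092: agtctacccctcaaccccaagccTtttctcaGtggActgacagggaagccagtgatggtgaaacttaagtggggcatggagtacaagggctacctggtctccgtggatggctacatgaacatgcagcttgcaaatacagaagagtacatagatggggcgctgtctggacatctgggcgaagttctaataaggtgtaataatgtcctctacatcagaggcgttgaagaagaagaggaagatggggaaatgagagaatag
All 3 lie near the start of the stretch, so the rest of it is identical between the gene and its copy.

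The promoters of 3 members are shown because they belong to the hnRNP gene with the largest rise, the hnRNP gene with the largest fall and the SF3 gene with the largest rise. They were chosen after the values were seen and run from 250 bases before to 50 bases after the start site in RefSeq (GRCm38.p6), which held 44 of the 50 members. Capitals mark 3 motifs, searched on both strands. The E-box, bound by MYC and related factors, is CACGTG. The core bound by ETS factors is CCGGAAG and appears as CTTCCGG when on the other strand. The motif bound by NF-Y is CCAAT and appears as ATTGG when on the other strand.
Hnrnph2, chrX:134600929-134601228, plus strand: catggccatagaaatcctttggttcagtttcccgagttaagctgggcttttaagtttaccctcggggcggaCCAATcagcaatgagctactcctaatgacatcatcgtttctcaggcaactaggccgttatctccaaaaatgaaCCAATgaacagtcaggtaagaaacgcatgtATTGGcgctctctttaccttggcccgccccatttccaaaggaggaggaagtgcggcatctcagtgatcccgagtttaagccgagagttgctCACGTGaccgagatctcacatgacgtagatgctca
Hnrnpa0, chr13:58128507-58128806, minus strand: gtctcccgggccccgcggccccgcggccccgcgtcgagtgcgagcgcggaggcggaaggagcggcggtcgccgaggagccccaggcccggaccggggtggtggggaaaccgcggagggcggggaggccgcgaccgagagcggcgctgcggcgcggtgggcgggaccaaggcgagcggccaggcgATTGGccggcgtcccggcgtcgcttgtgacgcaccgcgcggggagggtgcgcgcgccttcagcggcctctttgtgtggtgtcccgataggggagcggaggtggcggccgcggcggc
Sf3a3, chr4:124714611-124714910, plus strand: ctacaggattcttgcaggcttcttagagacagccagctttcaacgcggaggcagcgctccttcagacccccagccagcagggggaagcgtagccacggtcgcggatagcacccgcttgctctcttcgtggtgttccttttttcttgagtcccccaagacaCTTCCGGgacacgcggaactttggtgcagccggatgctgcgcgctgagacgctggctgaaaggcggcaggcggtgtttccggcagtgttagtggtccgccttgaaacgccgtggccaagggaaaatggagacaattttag
The Hnrnph2 promoter holds 1 E-box, starting at base 266, and 3 CCAAT boxes. That of Hnrnpa0 holds 1 CCAAT box and that of Sf3a3 holds 1 ETS core. The promoters of Srsf9 and Snrpa1, the SR and the Sm or snRNP gene with the largest rise, are not shown and held none of these motifs. That of Srsf10, the SR gene that fell, is not shown either and held 1 CCAAT box.

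Among the 44 members with a promoter, 6 (13.6%) held an E-box: Hnrnpa3, Hnrnpd, Hnrnpf, Hnrnph2, Hnrnpm and Snrpa. The share was 12.1% of the 8362 tested protein-coding genes with a promoter and 8.09% of all 27025 genes in the table. By call, 4 of 16 members that rose, 1 of 4 that fell and 1 of 23 that were not called held one. The ETS core was in 16 of 44 members (36.4%, against 22.3% of tested and 9.93% of all genes), 5 of the 16 that rose, 0 of the 4 that fell and 11 of the 23 not called (47.8%). The CCAAT box was in 21 of 44 (47.7%, against 43.7% and 41.1%), 6 of the 16 that rose, all 4 of the 4 that fell and 11 of the 23 not called. A gene with several promoters counted once if any of them held the motif. These counts describe letters in a window and not the binding of a factor.

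Levels are in TPM, a unit that corrects for transcript length and has the same total in each library, so depth is unknown and levels can be compared between genes. Slc43a2, the targeted gene, measured 6.68, 4.18 and 4.79 TPM with the mock guide and 3.5, 2.4 and 4.15 TPM with its own guide, with no overlap, and its change was not called (log2 change -0.52, SE 0.23, limma adjusted p = 0.113). T cell identity genes summed to 10151 to 11657 TPM with the mock guide and 8990 to 9493 TPM with the SLC43A2 guide, and 2 of 14 rose and 3 fell. B cell genes summed to 315 to 399 and 25.0 to 25.7 TPM, plasma cell genes to 23184 to 24772 and 801 to 918 TPM, macrophage genes to 585 to 683 and 66.8 to 73.0 TPM, and erythroid genes to 987 to 1145 and 46.3 to 58.5 TPM. Of the tested genes 9 of 9, 7 of 8, 10 of 11 and 7 of 8 fell in these 4 lists. Neutrophil genes (449 to 632 and 103 to 124 TPM) fell in 7 of 7 cases and NK cell genes (261 to 345 and 136 to 148 TPM) in 6 of 7. Hepatoma genes summed to 21.3 to 37.6 and 5.98 to 8.31 TPM, with 4 of 10, among them Alb, listed at 0 in every library and 1 of 3 tested lower. That gene, Trf, stood at 13.45 to 29.05 and 1.68 to 1.98 TPM, while Afp and Apoa2 overlapped and were not called. Dendritic cell genes summed to 11.9 to 16.3 and 8.29 to 9.86 TPM (2 of 4 fell). Fibroblast and endothelial genes summed to 14.9 to 19.6 and 4.56 to 7.52 TPM (1 of 1 fell, with Col1a1 listed at 0 throughout). Nearly all of the latter sum was the gene that fell, Pecam1, at 14.08 to 19.0 and 4.45 to 6.81 TPM. The Y-linked Eif2s3y stood at 45.3 to 55.6 TPM with the mock guide and 0.79 to 1.36 TPM with the SLC43A2 guide, and Xist at 3.18 to 5.40 and 9.64 to 11.9 TPM. T cell activation genes summed to 970 to 1302 and 4352 to 4552 TPM (9 of 12 rose, 1 fell), and cell division genes to 480 to 541 and 614 to 678 TPM (4 of 14 rose, 4 fell). The part of the marker levels, the sex-linked genes or the activation genes in the splicing factor results was not tested. Eif2s3y and Xist did not overlap between the guides, so a difference in sex make-up cannot be told apart from the guide. In bulk samples, fewer cells of a type and less RNA per cell cannot be told apart.

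Splicing factor transcripts were abundant, and most stood higher with the SLC43A2 guide, as most abundant protein-coding genes did. Of the 50 members, 49 had a mean of at least 1 TPM and were tested; Srsf12, at 0.38 to 1.51 TPM, was not. At an adjusted p under 0.05 (limma on log2(TPM + 1), adjusted over all 13759 genes tested), 20 rose, 5 fell and 24 were not called. In the same fit 22.8% of all tested genes rose and 22.2% fell (45.1% in either direction), as did 28.1% and 19.3% of the protein-coding genes (47.4% in either direction), against 40.8% and 10.2% of the members. These genes are more abundant than most. Among the protein-coding genes with a mean of at least 10 TPM, 38.1% rose and 16.6% fell (54.7% in either direction), and among the 47 members at that level 42.6% and 8.51%. The share that rose is thus near that of abundant genes in general. The median log2 change was 0.31 over the 49 members, 0.16 over all tested protein-coding genes and 0.31 over those of at least 10 TPM. It was positive for 75.5% of the members, 57.8% of all tested protein-coding genes and 65.9% of those of at least 10 TPM.

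Calls changed with scaling. Of the members' calls 80.0% were higher with TPM as deposited (20 higher, 5 lower), against 50.6% of the calls over all genes. After quantile normalization the shares were 59.1% (13 and 9) and 58.8%, so the members' calls were then split as those of all genes were. When protein-coding genes alone were rescaled the shares were 68.0% (17 and 8) and 49.0%, and with median-of-ratios scaling 69.6% (16 and 7) and 48.3%. With the genes of antigen receptors, mitochondria and hemoglobin removed they were 68.4% (13 and 6) and 44.8%. With scaling to T cell receptor transcripts they were 86.2% (25 and 4) and 62.2%. All genes include less abundant ones. Protein-coding genes of at least 10 TPM had 2376 higher and 1035 lower calls as deposited, a larger share higher than over all genes. Their calls were not counted under the other scalings. Leaving out SLC43A2 sgRNA replicate 3, SLC43A2 sgRNA replicate 1 or Mock sgRNA replicate 1 left 7, 10 or 12 members higher, each with 3 lower. The 9 members called under all 20 alternatives were Srsf3, Srsf6, Hnrnph2, Hnrnpk, Snrpa1 and Sf3a3, which rose, and Hnrnpa0, Hnrnpa3 and Hnrnpul2, which fell. Groups did not overlap for 26 of the 49 tested members, 20 higher and 6 lower. The same held for 28.7% (higher) and 28.3% (lower) of all tested genes, 35.1% and 25.1% of the protein-coding genes, and 45.2% and 20.8% of those of at least 10 TPM.

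**Figure D1:**
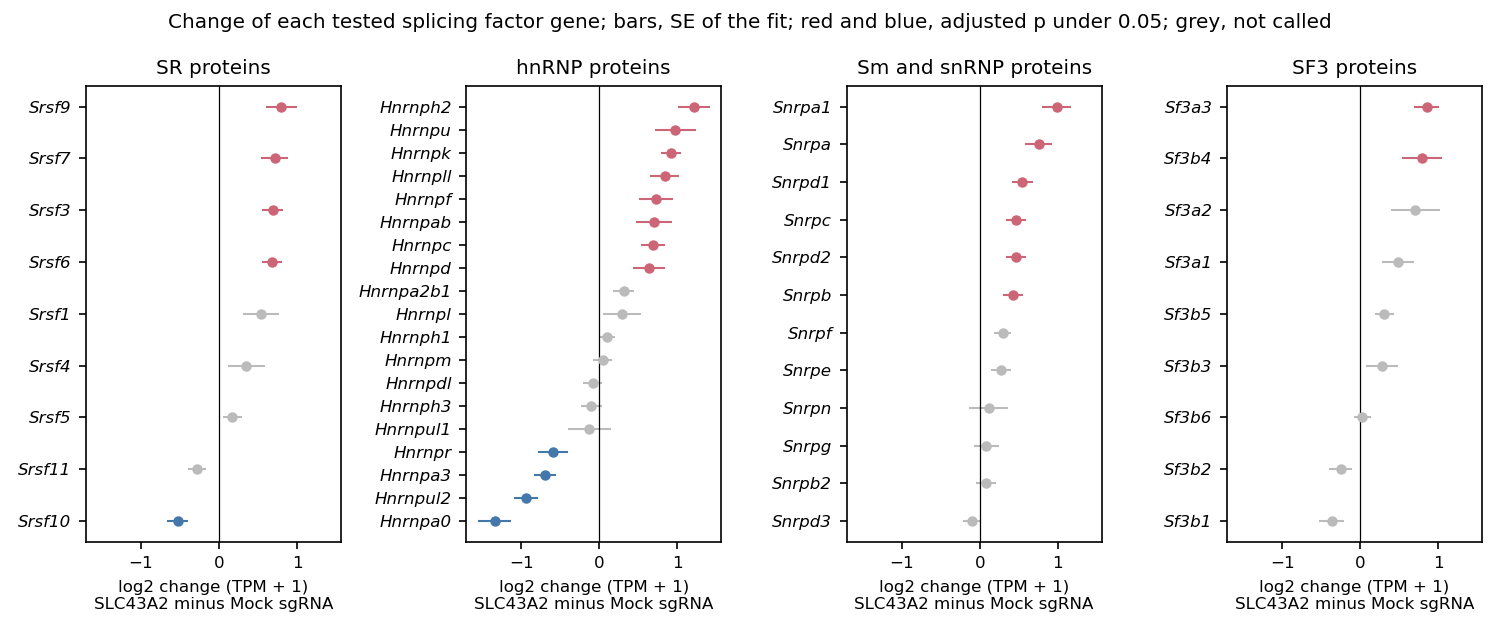
Log2 change (SLC43A2 minus Mock sgRNA, on log2(TPM + 1)) of the 49 tested members by family; points are the fitted change, bars its SE, red and blue mark members that rose or fell at an adjusted p under 0.05 and grey those not called. Changes run from -1.34 (Hnrnpa0) to 1.21 (Hnrnph2), and the hnRNPs hold 4 of the 5 falls.

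The summed level of the members was 0.878%, 0.880% and 0.946% of the library in Mock sgRNA replicates 1, 2 and 3 and 1.196%, 1.10% and 1.203% in SLC43A2 sgRNA replicates 1, 2 and 3. The SR proteins made up 0.132% ± 0.0168 and 0.171% ± 0.00880, the hnRNPs 0.342% ± 0.0343 and 0.476% ± 0.0647, the Sm and snRNP proteins 0.342% ± 0.0198 and 0.426% ± 0.0269, and the SF3 proteins 0.0853% ± 0.00260 and 0.0943% ± 0.00650 (mean ± SD, n = 3 each). In each of the first 3 families every SLC43A2 sgRNA library was above every Mock sgRNA library; for SF3, SLC43A2 sgRNA replicate 2 (0.0868%) lay just under Mock sgRNA replicate 3 (0.0870%). The snRNA genes, the RNA partners of the snRNP proteins, went the other way, from 1.49%, 1.97% and 1.26% to 0.484%, 0.613% and 0.492% of the library. Protein-coding transcripts as a whole rose from 77.9% ± 1.13 to 86.6% ± 0.338 (SD, n = 3 each). Neither of these shares was tested as a source of the members' changes.

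**Figure D2:**
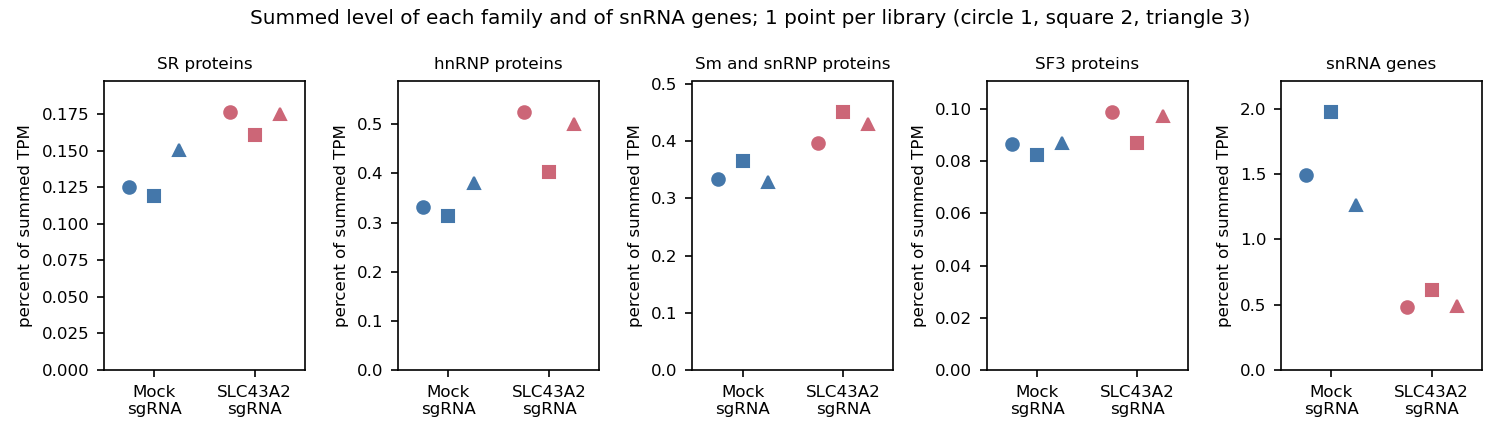
Percent of the library's summed TPM held by each splicing factor family and by the genes classed as snRNA; each point is a library (circle replicate 1, square replicate 2, triangle replicate 3), blue for Mock sgRNA and red for SLC43A2 sgRNA. The protein families stand higher with the SLC43A2 guide (SF3 with overlap), while the snRNA genes drop from 1.26% or more to 0.613% or less.

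The SR proteins bind exons through an RNA recognition domain and carry arginine-serine repeats. Of the 9 tested, 4 rose, 1 fell and 4 were not called (median log2 change 0.54). Rises were 44.4% and falls 11.1% of those tested, against 38.1% and 16.6% of protein-coding genes of at least 10 TPM. Without Mock sgRNA replicate 1, SLC43A2 sgRNA replicate 1 or SLC43A2 sgRNA replicate 3, 2 rose and 0 fell in each case, and without Mock sgRNA replicate 2 the numbers were 3 and 2. Srsf9 (ENSMUSG00000029538) stood at 67.8, 58.7 and 99.5 TPM with the mock guide and at 133, 122 and 132 TPM with the SLC43A2 guide (log2 change 0.80, SE 0.20, limma adjusted p = 0.0169). Srsf7 (ENSMUSG00000024097), the most abundant SR gene of the rule, also links mRNA to nuclear export. It stood at 238, 237 and 353 TPM and then at 442, 463 and 430 TPM (0.71, SE 0.17, limma adjusted p = 0.0144). Srsf3 (ENSMUSG00000071172), another adaptor of mRNA export, stood at 192, 203 and 242.5 TPM and then at 366, 311 and 349 TPM (0.69, SE 0.13, adjusted p = 0.00623). In each of these the lowest SLC43A2 sgRNA library was above the highest Mock sgRNA library. Srsf6 rose from 66.7 ± 4.79 to 108 ± 9.86 TPM (SD, n = 3 each). The calls of Srsf9 and Srsf7 were lost without Mock sgRNA replicate 1 (limma adjusted p = 0.0697 and 0.0618), SLC43A2 sgRNA replicate 1 (0.0606 and 0.0516) or SLC43A2 sgRNA replicate 3 (0.0651 and 0.0514), and that of Srsf7 also without Mock sgRNA replicate 2 (0.0537).

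Srsf10 (ENSMUSG00000028676), which represses splicing when it loses its phosphates, for example in heat shock, fell. It stood at 145, 121 and 160 TPM with the mock guide and at 98.4, 96.6 and 97.2 TPM with the SLC43A2 guide, a 1.46-fold drop (log2 change -0.53, SE 0.13, limma adjusted p = 0.0171). The call was lost without Mock sgRNA replicate 1 (adjusted p = 0.0516), SLC43A2 sgRNA replicate 1 (0.0535) or SLC43A2 sgRNA replicate 3 (0.0579). Srsf11 also stood lower in all 3 SLC43A2 sgRNA libraries (158 ± 11.8 and 130 ± 5.91 TPM, SD, n = 3 each) but was not called (adjusted p = 0.0787). Srsf1 (ENSMUSG00000018379), the founding member of the family, was uneven within the SLC43A2 guide group, at 68.7, 45.8 and 83.5 TPM against 48.4, 38.2 and 45.0 TPM. Its groups overlapped through SLC43A2 sgRNA replicate 2, and it was not called (log2 change 0.54, SE 0.23, limma adjusted p = 0.0945). Srsf4 and Srsf5 were not called (adjusted p = 0.259 and 0.272). Exons of Srsf4 share 43.0% of their bases with Gm12992 on the opposite strand, and whether reads were assigned by strand is not stated in the sources.

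The hnRNPs went both ways: 8 of 19 rose, 4 fell and 7 were not called (median 0.29). Those that rose were 42.1% and those that fell 21.1%, against 38.1% and 16.6% of protein-coding genes of at least 10 TPM. The number that rose was 2 without SLC43A2 sgRNA replicate 3, 3 without SLC43A2 sgRNA replicate 1 or Mock sgRNA replicate 1 and 4 without Mock sgRNA replicate 2 or with no filter on low values, with 3 falls in each case. It was 5, with 4 falls, after quantile normalization (median 0.07) and with the genes of antigen receptors, mitochondria and hemoglobin removed. Hnrnph2 (ENSMUSG00000045427), an X-linked protein that binds runs of G, had the largest rise of all members. It stood at 34.3, 33.9 and 46.1 TPM with the mock guide and at 102, 68.7 and 98.8 TPM with the SLC43A2 guide, 2.36-fold higher on the ratio of means (log2 change 1.21, SE 0.20, limma adjusted p = 0.00394). The groups were well apart, the closest values being 46.1 and 68.7 TPM. Since Y-linked transcripts and Xist also differed between the guides, the X-linked genes were examined. The 313 tested protein-coding genes of the X chromosome had a median log2 change of 0.12, with 83 higher and 53 lower. Over all 10463 tested protein-coding genes the median was 0.16, with 2940 higher (28.1%) and 2024 lower (19.3%). The part of sex in the change of Hnrnph2 was not tested and cannot be told apart from that of the guide in these libraries. Its autosomal paralog Hnrnph1 stood at 218 ± 12.7 and 233 ± 5.72 TPM (SD, n = 3 each) and was not called (adjusted p = 0.462).

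Hnrnpk (ENSMUSG00000021546), which binds C-rich RNA and DNA, stood at 479, 439 and 548 TPM with the mock guide and at 972, 818 and 989 TPM with the SLC43A2 guide. This is a 1.90-fold rise (log2 change 0.92, SE 0.13, limma adjusted p = 0.00189), the smallest adjusted p among the members. Its share of the summed hnRNP level went from 14.3% to 19.6% on average. The nuclear scaffold protein gene Hnrnpu (ENSMUSG00000039630) stood at 78.5, 70.3 and 111 TPM and then at 221, 122 and 174 TPM (0.97, SE 0.26, adjusted p = 0.0210). All 3 SLC43A2 sgRNA values were above the Mock sgRNA values but spread widely, and leaving out either of Mock sgRNA replicates 1 and 2 or SLC43A2 sgRNA replicates 1 and 3 ended the call (adjusted p = 0.0868, 0.0820, 0.0706 and 0.0784). Hnrnpc, which coats nascent transcripts, rose from 259 ± 48.9 to 414 ± 37.0 TPM (SD, n = 3 each), a call lost without Mock sgRNA replicate 1 (adjusted p = 0.0515) or SLC43A2 sgRNA replicates 1 (0.0507) or 3 (0.0539). Hnrnpf, Hnrnpab and Hnrnpd were called as higher although their groups overlapped (log2 changes 0.73, 0.70 and 0.64; adjusted p = 0.0320, 0.0433 and 0.0432). Each of these 3 calls was lost without SLC43A2 sgRNA replicate 1 (adjusted p = 0.114, 0.143 and 0.136) or 3 (0.118, 0.140 and 0.146), without Mock sgRNA replicate 1 (0.122, 0.146 and 0.0599) or 2 (0.114, 0.142 and 0.132), and for Hnrnpd also without Mock sgRNA replicate 3 (0.0982). Exons of Hnrnpab share 29.1% of their bases with Phykpl, and those of Hnrnpf 13.5% with 4933440N22Rik, both on the opposite strand.

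Hnrnpll (ENSMUSG00000024095) and Hnrnpl are known for silencing the variable exons of Ptprc, the gene of CD45, in T cells, Hnrnpll during activation. Hnrnpll stood at 12.4, 11.9 and 12.98 TPM with the mock guide and at 26.2, 17.4 and 26.5 TPM with the SLC43A2 guide, 1.88-fold higher (log2 change 0.84, SE 0.19, limma adjusted p = 0.0114). The 3 Mock sgRNA values were close together, and each SLC43A2 sgRNA value was above them. Without SLC43A2 sgRNA replicate 3 the call was lost (adjusted p = 0.0559). Hnrnpl stood at 128, 132 and 93.8 TPM and then at 161, 102 and 178 TPM, with overlap, and was not called (0.29, SE 0.24, adjusted p = 0.353). Hnrnpa2b1, the most abundant hnRNP of the rule, stood at 753, 782 and 883 TPM and then at 1124, 852 and 1035 TPM. SLC43A2 sgRNA replicate 2 lay within the Mock sgRNA range, and the gene was not called (0.31, SE 0.13, adjusted p = 0.0960).

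Hnrnpa0, Hnrnpul2, Hnrnpa3 and Hnrnpr fell. Hnrnpa0 (ENSMUSG00000007836), which binds AU-rich elements of cytokine mRNAs, stood at 31.9, 24.1 and 17.6 TPM with the mock guide and at 8.88, 8.58 and 8.94 TPM with the SLC43A2 guide. The drop was 2.79-fold (log2 change -1.34, SE 0.22, limma adjusted p = 0.00324), and the SLC43A2 sgRNA libraries were nearly equal while the Mock sgRNA libraries spread. Hnrnpul2 (ENSMUSG00000071659), a relative of Hnrnpu linked to DNA repair, stood at 9.68, 8.42 and 7.61 TPM and then at 3.96, 4.25 and 3.68 TPM (-0.94, SE 0.15, adjusted p = 0.00347). Its relatives differed from it: Hnrnpu rose, and Hnrnpul1 stood at 16.0 ± 5.83 and 14.2 ± 3.00 TPM (SD, n = 3 each) and was not called (adjusted p = 0.720). Hnrnpa3 changed by -0.70, from 184 ± 23.7 to 112 ± 8.64 TPM. In GENCODE M21, 28 other genes matched a stretch of Hnrnpa3 of 200 bases or more at 95% identity or higher. Together the matches covered 28.9% of its longest protein-coding transcript, and these genes held 6.3% of its level in sum. The change of Hnrnpr (-0.59, adjusted p = 0.0416) lost its call with each of the 6 libraries left out in turn (adjusted p = 0.0653, 0.0538 and 0.0594 for Mock sgRNA replicates 1, 2 and 3, and 0.0735, 0.0813 and 0.138 for SLC43A2 sgRNA replicates 1, 2 and 3). The other uncalled hnRNPs, Hnrnpdl, Hnrnph3 and Hnrnpm, had adjusted p of 0.581, 0.559 and 0.811. Exons of Hnrnpm overlap those of its neighbor, listed as Marchf2 in the table, over 14.7% of their bases.

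**Figure D3:**
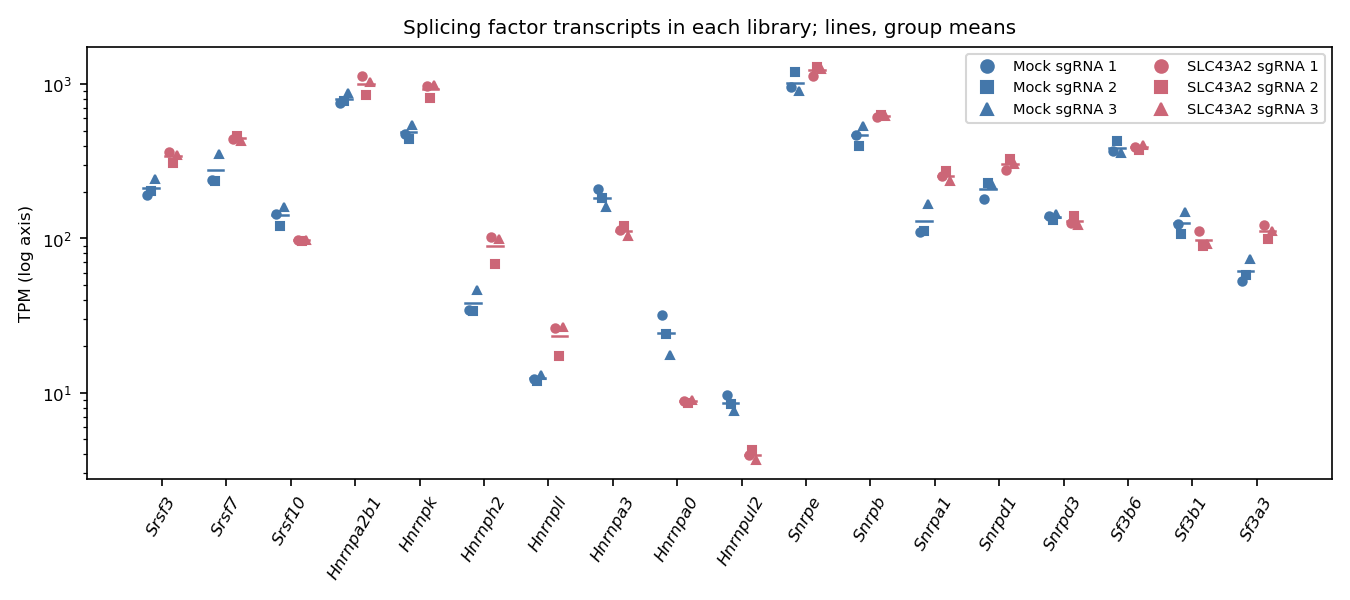
TPM (log axis) of 18 members in each library; blue marks are Mock sgRNA, red marks SLC43A2 sgRNA, shapes the replicate number and short lines the group means. Hnrnpk, Hnrnph2 and Snrpa1 separate upward and Hnrnpa0 and Hnrnpul2 downward, while Snrpd3, Sf3b1 and Sf3b6 overlap.

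Hnrnpa1 and Srsf2 match the symbols but are classed in the deposited table as nonsense-mediated decay and are therefore not members. GENCODE M21 gives both as protein-coding. Hnrnpa1, a much-studied antagonist of SR proteins, stood at 377, 349 and 457 TPM with the mock guide and at 719, 688 and 694 TPM with the SLC43A2 guide (log2 change 0.84, SE 0.12, limma adjusted p = 0.00241). Srsf2, an SR protein, stood at 437, 463 and 496 TPM and then at 583, 483 and 602 TPM, with overlap (0.25, SE 0.12, adjusted p = 0.132). Exons of Srsf2 share 15.6% of their bases with Mettl23 on the opposite strand.

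Of the 12 Sm and snRNP genes 6 rose, 0 fell and 6 were not called (median 0.36). In the set of protein-coding genes of at least 10 TPM, 38.1% rose and 16.6% fell, against 50% and 0% of this family. Only 2 rose with median-of-ratios scaling, after quantile normalization (where 1 fell) or without SLC43A2 sgRNA replicate 3, and 3 when protein-coding genes alone were rescaled or the genes of antigen receptors, mitochondria and hemoglobin were removed. With scaling to T cell receptor transcripts 8 rose. The calls of Snrpb, Snrpc and Snrpd2 ended under each of the 4 scalings that lowered the count (adjusted p between 0.0522 and 0.245), and that of Snrpd1 with median-of-ratios scaling (0.0647) and quantile normalization (0.105). Of the 4 proteins particular to the U1 and U2 snRNPs by their known roles, 3 rose. Snrpa1 (ENSMUSG00000030512), the U2 protein A', stood at 110, 113 and 168 TPM with the mock guide and at 253, 272 and 236 TPM with the SLC43A2 guide, 1.95-fold higher (log2 change 0.98, SE 0.18, limma adjusted p = 0.00568). Snrpa (ENSMUSG00000061479), the U1 protein A, stood at 90.9, 60.5 and 69.7 TPM and then at 122, 112 and 137 TPM (0.75, SE 0.18, adjusted p = 0.0130), but was not called once SLC43A2 sgRNA replicate 3 was left out (adjusted p = 0.0575). In both genes the groups were apart. Snrpc, the U1 protein C, rose by 0.47 (adjusted p = 0.0232), a call lost without Mock sgRNA replicate 2 (0.0587) or SLC43A2 sgRNA replicate 3 (0.0554). Snrpb2, the close relative of Snrpa in the U2 snRNP, stood at 83.0 ± 8.19 and 87.5 ± 5.55 TPM (SD, n = 3 each) and was not called (adjusted p = 0.641).

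Among the 7 genes of the Sm ring, 3 rose and 4 were not called. Snrpd1 (ENSMUSG00000002477), whose protein SmD1 carries a tail of arginine-glycine repeats that PRMT5 methylates, stood at 180, 228 and 221 TPM with the mock guide and at 280, 329 and 305 TPM with the SLC43A2 guide (log2 change 0.54, SE 0.13, limma adjusted p = 0.0159). Snrpb (ENSMUSG00000027404), of SmB with a similar tail, stood at 470, 399 and 534 TPM and then at 615, 629 and 626 TPM (0.42, SE 0.13, adjusted p = 0.0317). Snrpd3, the third ring protein with such a tail, did not follow: it stood at 139, 133 and 144 TPM and then at 126, 141 and 123 TPM and was not called (-0.10, SE 0.11, adjusted p = 0.498). The calls of 2 of these genes were lost without SLC43A2 sgRNA replicate 3 (adjusted p = 0.0583 for Snrpd1 and 0.10 for Snrpb), and that of Snrpb also without Mock sgRNA replicates 1 (0.0828) or 2 (0.0582) or SLC43A2 sgRNA replicates 1 (0.0885) or 2 (0.0688). Snrpd2 rose by 0.46 (adjusted p = 0.0234), a call lost without Mock sgRNA replicate 1 (0.0547) or SLC43A2 sgRNA replicate 1 (0.0666). Snrpe, the most abundant member of all, stood at 962, 1199 and 910 TPM and then at 1128, 1300 and 1263 TPM. Its groups overlapped through Mock sgRNA replicate 2, and it was not called (0.27, SE 0.13, adjusted p = 0.131). Snrpn, which encodes SmN, the neuronal relative of SmB, was near the floor of the filter at 0.70 to 1.41 TPM over the 6 libraries and was not called (adjusted p = 0.732).

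SmG and SmF have to be read together with the copies shown above. Snrpg stood at 769, 890 and 607 TPM with the mock guide and at 701, 848 and 832 TPM with the SLC43A2 guide, with overlap and no call (log2 change 0.08, SE 0.16, limma adjusted p = 0.693). Gm8186, identical to its coding bases, stood at 542, 646 and 619 TPM and then at 920, 877 and 854 TPM (0.56, SE 0.10, adjusted p = 0.00604). The sum of both was 1311, 1536 and 1226 TPM and then 1621, 1724 and 1686 TPM, without overlap, whereas the values of Snrpg alone overlapped. TPM divides reads by length, which is 231 bases for Gm8186 and 633 on average for Snrpg transcripts in GENCODE M21. A read thus weighs more when assigned to the copy, and the sum is not the level of SmG mRNA. Snrpf stood at 257, 259 and 252 TPM and then at 289, 334 and 318 TPM, without overlap but short of the threshold (0.29, SE 0.10, adjusted p = 0.0565). Gm13092 rose as well, from 348 ± 7.79 to 500 ± 40.5 TPM (SD, n = 3 each, limma adjusted p = 0.00744), and the sum went from 604 ± 4.30 to 813 ± 63.2 TPM. That sum has the same limit, with lengths of 260 bases for Gm13092 and 861 for Snrpf. Exons of Snrpf also share 65.9% of their bases with Ccdc38 on the opposite strand. The levels of both genes are therefore uncertain. Of the other members, 23 also had at least 1 gene that matched 200 bases or more at 95% identity or higher, counting genes that overlap them in place. Such genes held over 10% of the member's level for Hnrnpm, Snrpn and Sf3a2, the last through Plekhj1, an overlapping gene on the opposite strand.

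**Figure D4:**
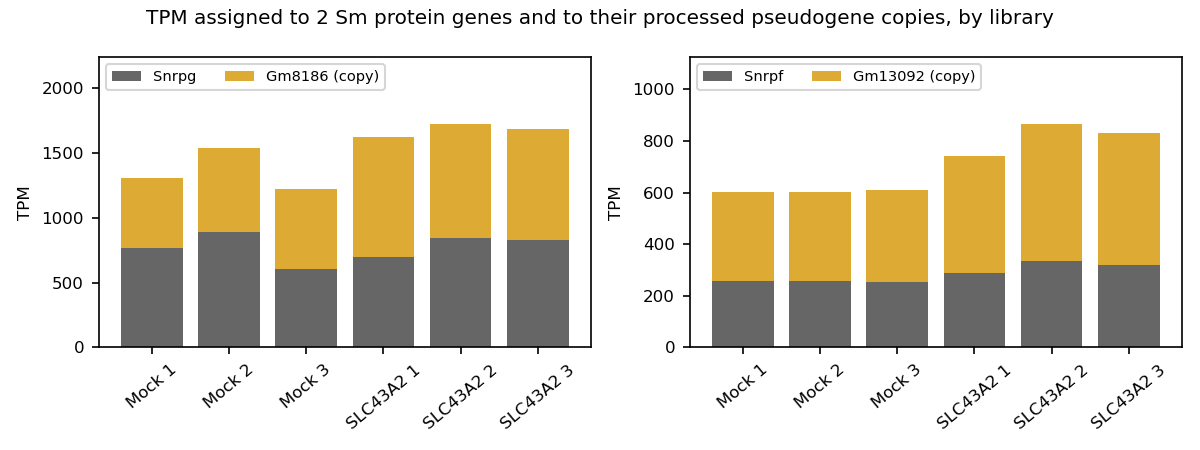
TPM by library of Snrpg and Snrpf (grey) stacked with that of their processed pseudogene copies Gm8186 and Gm13092 (yellow). Grey Snrpg bars overlap between the guides, while the stacked totals are 1226 to 1536 TPM with the mock guide and 1621 to 1724 TPM with the SLC43A2 guide. The totals add rows of unequal length and are not the level of the mRNA.

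Of the SF3 genes 2 of 9 rose, 0 fell and 7 were not called (median 0.31). Protein-coding genes of at least 10 TPM rose in 38.1% and fell in 16.6% of cases, against 22.2% and 0% here. After quantile normalization or when protein-coding genes alone were rescaled 2 rose and 2 fell, and with scaling to T cell receptor transcripts 4 rose and 0 fell. The number that rose was 3 without Mock sgRNA replicate 1 and 1 without Mock sgRNA replicate 3 or any 1 of the SLC43A2 sgRNA libraries. Of SF3A, which joins the U2 snRNP late in its maturation, Sf3a3 (ENSMUSG00000028902) stood at 53.4, 57.9 and 73.1 TPM with the mock guide and at 122, 98.7 and 112 TPM with the SLC43A2 guide, 1.81-fold higher (log2 change 0.85, SE 0.16, limma adjusted p = 0.00578). Its groups were apart in every library. Its partners Sf3a1 (0.48, adjusted p = 0.0964) and Sf3a2 (0.71, adjusted p = 0.107) were not called. In SF3B, Sf3b4 (ENSMUSG00000068856), which touches the intron next to the branch site, stood at 84.4, 41.6 and 71.3 TPM and then at 110, 106 and 113 TPM (0.79, SE 0.25, adjusted p = 0.0400). The Mock sgRNA libraries spread over a range that the SLC43A2 sgRNA libraries did not share. The call was lost without Mock sgRNA replicate 3 (adjusted p = 0.0652) or SLC43A2 sgRNA replicates 1 (0.106), 2 (0.0851) or 3 (0.12). Sf3b1, the branch site clamp that is mutated in some blood cancers, stood at 125, 107 and 148 TPM and then at 112, 89.5 and 92.2 TPM. It overlapped and was not called (-0.37, SE 0.16, adjusted p = 0.106). Sf3b6, the most abundant SF3 gene, stood at 385 ± 40.7 and 392 ± 15.7 TPM (SD, n = 3 each; adjusted p = 0.855), and Sf3b2, Sf3b3 and Sf3b5 had adjusted p of 0.203, 0.291 and 0.0704.

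The libraries within a group did not vary alike across families. SLC43A2 sgRNA replicate 2 was the lowest of its group in 8 of 9 tested SR protein genes, 15 of 19 hnRNP genes and 8 of 9 SF3 genes. It was the highest in 10 of 12 Sm and snRNP genes. Mock sgRNA replicate 2 was likewise the lowest of its group in 7 of 9 SR protein, 10 of 19 hnRNP and 6 of 9 SF3 genes. It was the highest in 6 of 12 Sm and snRNP genes. The mean transcript length in GENCODE M21 was 476 to 2004 bases in the Sm and snRNP genes (median 1100) and 1128 to 3904 bases in the hnRNPs (median 1729). Across the 49 members, the gap between replicate 2 and the mean of the other SLC43A2 sgRNA libraries (log2) had a Spearman correlation of -0.257 with transcript length, and the same gap had one of -0.217 across 10442 protein-coding genes. These correlations are across genes, which share libraries and are not replicates. Without SLC43A2 sgRNA replicate 2, 20 members rose and 4 fell, with a median of 0.42. With trends in length and GC removed from each library, 22 rose and 6 fell. Over all genes, 4018 of 12953 then rose and 3024 fell, against 3139 and 3060 of 13759 in the main fit. Across the tested members, log2 levels correlated at 0.980 to 0.989 between Mock sgRNA libraries, 0.988 to 0.997 between SLC43A2 sgRNA libraries and 0.941 to 0.977 between the groups.

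Other genes of the splicing machinery were grouped by role. Of 158 such genes, 155 were tested, and 44 rose (28.4%) and 26 fell (16.8%), with a median change of 0.20. All tested protein-coding genes had 28.1% and 19.3% (median 0.16). The role-list genes were more abundant than most, with a median level of 44.8 TPM. Protein-coding genes of at least 10 TPM had 38.1% and 16.6% (median 0.31), so the share that rose was below that of abundant genes. In the assembly pathway that methylates Sm proteins and builds the ring, 13 of 17 rose and 1 fell (median 0.82). Prmt5, the methyltransferase itself, stood at 33.6 ± 8.31 TPM and then at 84.1 ± 16.8 TPM (SD, n = 3 each) and rose by 1.31 (SE 0.23, limma adjusted p = 0.00452). Its partners Wdr77 (1.26) and Clns1a (0.94), the latter the most abundant gene of the list at 111 and 211 TPM, rose too, as did Strap (1.16), Gemin4 (1.16) and Smn1 (0.82) of the SMN complex. Tgs1, which trimethylates the caps of snRNAs, changed by -0.42 (adjusted p = 0.0329), a call lost with any 1 library left out except Mock sgRNA replicate 2 (limma adjusted p = 0.0733 and 0.0708 without Mock sgRNA replicates 1 and 3, and 0.0777, 0.0538 and 0.109 without SLC43A2 sgRNA replicates 1, 2 and 3). The number that rose was 7 without SLC43A2 sgRNA replicate 1 or 3 and 8 without Mock sgRNA replicate 2, and the median stayed between 0.68 and 1.00 over the alternatives. Wdr77, Strap, Gemin4 and Smn1 were named after their values were seen.

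Among the kinases that phosphorylate SR proteins and their relatives in nuclear speckles, 11 of 20 fell and 1 rose (median -0.53). By comparison, 16.6% of protein-coding genes of at least 10 TPM fell and 38.1% rose. The kinase Srpk2 changed by -1.33 (63.1 ± 3.88 and 24.6 ± 4.06 TPM, SD, n = 3 each; limma adjusted p = 0.00102), Srpk1 by -0.55, Clk4 by -0.85, Clk1 by -0.51 and Prpf4b by -1.16. The largest change was that of the low Srpk3 (-1.79, 3.55 and 0.257 TPM), and Clk3 rose by 0.84 (adjusted p = 0.0306), a call lost without Mock sgRNA replicates 1 (0.114) or 2 (0.106) or SLC43A2 sgRNA replicates 1 (0.106) or 3 (0.0877). Srrm2, a speckle scaffold and the most abundant gene of the list, stood at 614 ± 181 and 325 ± 37.4 TPM (-0.88, adjusted p = 0.0200), a call lost without Mock sgRNA replicates 1 (0.0865) or 3 (0.0508) or SLC43A2 sgRNA replicates 1 (0.0535) or 3 (0.0846). Son, the other scaffold, changed by -0.64, a call lost with trends in length and GC removed (-0.33, adjusted p = 0.0833). Acin1 changed by -1.69. The call of Clk1 was lost with scaling to T cell receptor transcripts (adjusted p = 0.0611). Over all alternatives 9 to 12 of the list were lower. Srpk1, Srpk2, Clk1, Clk4, Prpf4b, Son and Acin1 were named after their values were seen.

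The remaining roles were mixed. Their counts are to be set beside the 38.1% of protein-coding genes of at least 10 TPM that rose and the 16.6% that fell (median 0.31). In the Prp19 and catalytic step list, 10 of 25 rose and 2 fell (median 0.41; 3 rose without SLC43A2 sgRNA replicate 1 or 3, 4 without Mock sgRNA replicate 1 and 5 without Mock sgRNA replicate 2), with Prpf19, the ubiquitin ligase of the complex at 1.36 (limma adjusted p = 0.0154) and the helicase-like Aqr at -0.93 (adjusted p = 0.00561). The call of Prpf19 was lost without Mock sgRNA replicate 2 (adjusted p = 0.0518) or SLC43A2 sgRNA replicates 1 (0.0626) or 3 (0.0679). Among proteins of the other snRNPs 7 of 24 rose and 3 fell (median 0.21; 5 fell without Mock sgRNA replicate 2, 1 without SLC43A2 sgRNA replicate 1 or 3, and 6 when protein-coding genes alone were rescaled), with Prpf31 of the tri-snRNP at 1.24 and Snrnp48 of the minor spliceosome at -0.89. In the list of branch site and 3 prime splice site factors 2 of 14 rose and 1 fell (median 0.13): U2af1, the subunit that reads the AG at the intron's end, rose by 0.95 from 112 ± 5.61 to 219 ± 34.5 TPM, Rbm17 rose by 0.72, and U2surp changed by -0.71. With scaling to T cell receptor transcripts 5 of the 14 rose, and with trends in length and GC removed 6. LSM proteins, some of which ring the U6 snRNA, had 2 of 13 higher, Lsm1 (0.61) and Lsm7 (0.54, the most abundant), and Lsm14b lower (-1.06), with a median of 0.29. With scaling to T cell receptor transcripts, or with trends in length and GC removed, 8 of the 13 rose. The number was 4 without Mock sgRNA replicate 3, and 1 without Mock sgRNA replicate 1 or 2 or SLC43A2 sgRNA replicate 3. The call of Lsm7 was lost without Mock sgRNA replicates 1 (adjusted p = 0.0901) or 2 (0.0717) or SLC43A2 sgRNA replicate 3 (0.0541). In the exon junction complex list 3 of 8 rose, with Rnps1 at 0.73, and Pnn fell by 0.60 (median 0.31). After quantile normalization, or without any 1 of Mock sgRNA replicates 1 and 2 and SLC43A2 sgRNA replicates 1 and 3, 1 of the 8 rose, and with scaling to T cell receptor transcripts 5 did. The call of Pnn was lost without Mock sgRNA replicates 2 (0.0666) or 3 (0.0691) or SLC43A2 sgRNA replicates 2 (0.0722) or 3 (0.105). Other RNA-binding regulators were split, 6 higher and 6 lower of 34 (median 0.12), and 6 and 11 after quantile normalization (median -0.10). Among them Ewsr1 rose by 1.08, while Rbm39, the most abundant, changed by -1.06 (834 ± 53.1 and 399 ± 17.04 TPM, SD, n = 3 each) and Taf15 by -2.15. Ewsr1 and Taf15 encode proteins of the same FET family and moved in opposite directions.

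**Figure D5:**
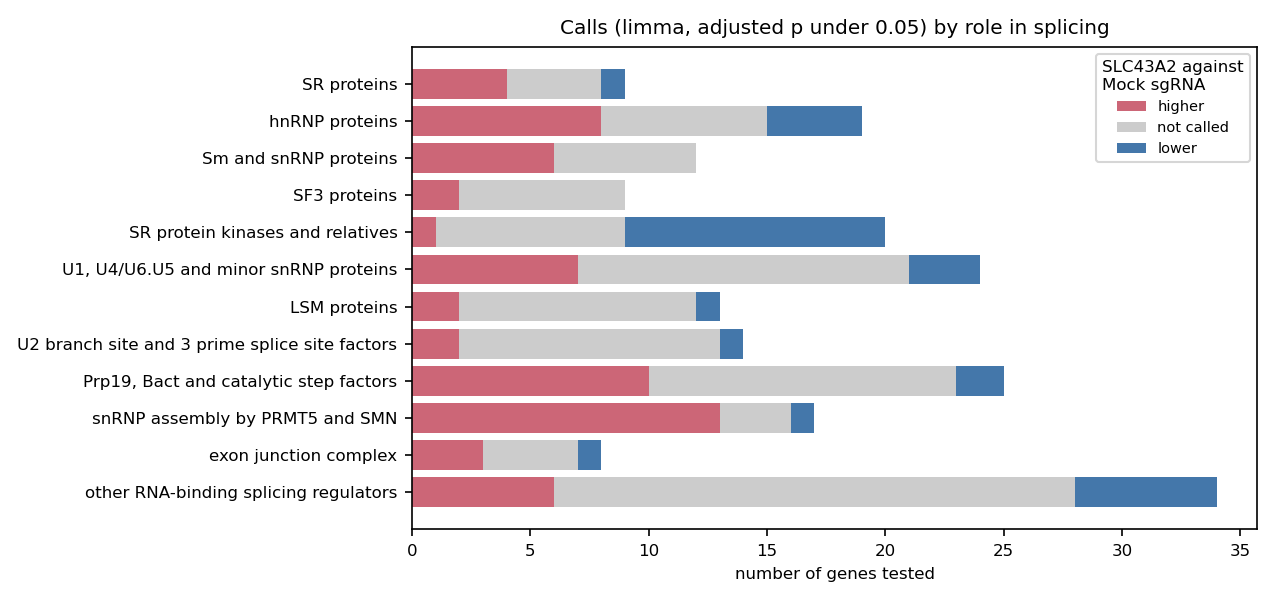
Number of genes tested in each family or role list, split by limma call (adjusted p under 0.05) into higher, not called and lower with the SLC43A2 guide. The assembly list is mostly higher (13 of 17), and the list of SR protein kinases and relatives mostly lower (11 of 20). Of protein-coding genes of at least 10 TPM, 38.1% were higher and 16.6% lower. With TPM as deposited the Sm and SF3 families hold no gene called lower. After quantile normalization 1 Sm and 2 SF3 genes were called lower.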

How the data were processed

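RNA-seq of lymphocytes from Hepa1-6 tumors was analysed in 6 libraries, grouped by sample title. Per the labels, TruSeq libraries were made from total RNA; the same text mentions retinas, so it may not describe these samples. The deposited values are TPM made by the authors. The submitters' processing notes name Bowtie 0.12.2 and the mm8 build; no source used here states the counting tool, annotation or filters. Only 90.7% of the table's identifiers are in GENCODE M21, which gave positions, lengths and overlaps. Read counts cannot be had from TPM, which leaves depth and counting error unknown. Nothing says that libraries came from separate animals; p-values then measure the spread between libraries, which may be technical.

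Limma 3.58.1 (R 4.3.3; trend, two-sided, Benjamini-Hochberg over 13759 genes with a mean of at least 1 TPM, threshold 0.05) was run on log2(TPM + 1), a scale that understates changes of low genes, and tested on simulated data. Fold is the ratio of mean TPM. Copies were found with blastn 2.17.0. Named in full were, per family, the 3 largest rises and 2 largest falls called, the most abundant member, and Hnrnpll, Hnrnpl, Snrpb, Snrpn, Snrpd1, Snrpd3, Sf3b1, Srsf1 and Srsf3; per role list, the largest rise and fall called and the most abundant. Other genes named were chosen after their values were seen. Members and lists were chosen with earlier results of these data known. Alternatives covered pseudocount, filter, scaling, variance model, a replicate block and each library left out; length and GC trends and removal of other cells' markers were added after seeing the data.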

Additional observations from a re-analysis of the deposited data

How the results depend on the processing

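The number of members called higher was 20 and lower 5. Higher calls numbered 13 after quantile normalization, with antigen receptor, mitochondrial and hemoglobin genes removed, and also without the markers of other cell types, and ranged from 7 to 20 when 1 library was left out. Lower calls were 9 after quantile normalization and 8 with protein-coding genes alone, and 3 to 5 with 1 library left out. Over all genes, 3139 were higher and 3060 lower; with 1 library left out, higher calls ranged from 1854 to 3183 and lower calls from 2247 to 2868, and 1882 were lower among genes of at least 5 TPM, where fewer genes were tested. Calls over all genes were 50.6% higher as deposited and 62.2% higher when scaled to T cell receptor transcripts. Of the role lists, 44 genes were higher and 26 lower; with 1 library left out the higher ranged from 23 to 44 and the lower from 19 to 27. The cause of these shifts was not tested, except that a left-out library leaves fewer samples. The median log2 change of all genes was 0.03 as deposited, 0.17 when scaled to T cell receptor transcripts and 0.14 after quantile normalization. Each of the 25 called members kept its direction under all 20 alternatives, and 9 kept their call in all.

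Whether the replicate numbers of the titles pair the libraries could not be settled from the values. Deviations from the group means correlated at 0.001, 0.061 and -0.031 between same-numbered libraries, and at -0.055 to 0.058 between the others. Low correlations over all genes cannot exclude a shared batch. With the replicate block, 21 members were higher and 4 lower, and 3319 and 3038 of all genes. Among the named genes, the block ended the calls of Snrpc, Hnrnpr and Pnn (limma adjusted p = 0.052, 0.0761 and 0.0573).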
